A study of Mus musculus with 3 samples.

Results

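Cytosolic ribosomal proteins build the ribosome that translates messenger RNA in the cytoplasm. The members described here were all genes whose platform symbol is Rpl or Rps followed by a number, together with Rplp0 and Rpsa. Genes of the Rps6k kinases and symbols with -ps were left out. The rule found 40 of 17742 genes on the array, read by 49 probes. By name, 25 were of the large subunit (Rpl) and 15 of the small subunit (Rps). The GRCm38.p6 annotation lists 89 protein-coding genes of this naming, and the others were not analysed here. Of the 40, 35 encode proteins of the standard ribosome. The other 5 (Rpl39l, Rpl3l, Rpl7l1, Rps27l and Rps19bp1) are paralogues or share only the name.

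The resistant group was 1 array of B117HS, a mouse myeloid leukaemia line of strain BXH-2 that was raised from its parent under increasing cytarabine (Ara-C) for about 10 weeks. Per the labels, about 10 times as much drug as for the parent gave its IC50. The sensitive group was 2 arrays of that parent, B117P. Both lines were cultured cells labelled as bone marrow. Cytarabine is a deoxycytidine analogue that blocks DNA synthesis, and the comparison asks which transcripts differ in the resistant line. Each line is a single culture lineage, and no label states whether the sensitive arrays came from separate cultures. The p-values therefore rest on the spread among these arrays alone, which may be technical.

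Every ribosome joins a small subunit, which reads the messenger RNA, to a large subunit, which forms the peptide bonds. Cells make the proteins of both subunits in matched amounts, and many of their messengers begin with a terminal oligopyrimidine (TOP) tract, a run of C and T at the first bases through which the mTOR kinase and the RNA-binding protein LARP1 control translation. Loss of 1 copy of several of these genes causes Diamond-Blackfan anaemia in humans, a failure of red cell production in the bone marrow.

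The start regions of 6 members are shown because they are the 3 with the lowest difference as deposited and the 3 with the highest difference after scaling, among members with a start in the table. Each run gives 40 bases before and 25 bases from the annotated start, on the transcript strand, from RefSeq in build GRCm38.p6. Capitals mark the pyrimidine motifs CTTTC, or CTTTTC, or else CTTTCC (letters found in TOP tracts), the motif CCGGAA on either strand (the core bound by ETS factors such as GABP) and AAGATGG on either strand (the core bound by YY1). Where a gene had several starts, the first with a pyrimidine motif, or else the first listed, was taken.
Rpl38, chr11:114668540-114668604, plus strand: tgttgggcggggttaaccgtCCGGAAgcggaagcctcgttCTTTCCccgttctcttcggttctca
Rps21, chr2:180257339-180257403, plus strand: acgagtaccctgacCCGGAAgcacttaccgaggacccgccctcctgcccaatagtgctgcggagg
Rpl22, chr4:152325686-152325750, plus strand: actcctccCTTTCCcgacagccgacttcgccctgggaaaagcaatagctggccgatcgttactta
Rpl39l, chr16:10170188-10170252, plus strand: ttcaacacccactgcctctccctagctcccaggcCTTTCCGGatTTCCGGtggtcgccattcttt
Rpl10a, chr17:28328431-28328495, plus strand: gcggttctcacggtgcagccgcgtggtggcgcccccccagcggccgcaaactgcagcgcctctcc
Rps15a, chr7:118116123-118116187, minus strand: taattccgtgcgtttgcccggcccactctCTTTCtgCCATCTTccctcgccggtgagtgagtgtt
In Rpl38 the annotated start falls on the first C of CTTTCC. In Rpl22 the pyrimidine motif lay more than 25 bases before the start, and in Rpl39l a pyrimidine motif overlaps CCGGAA of the other strand. The Rpl10a window held none of the marked letters.

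Start regions of 300 bases were found for 35 members, 44 regions in all. CCGGAA on either strand was in 47.7% of them, against 14.9% of all 32851 regions. AAGATGG was in 20.5% against 6.34%, GGGCGG, an Sp1-type core, in 59.1% against 35.7%, and TATAAA in 6.82% against 13.6%, again on either strand. Within 25 bases of the start, any of the 3 pyrimidine motifs, which overlap in part, was in 22.7% of member regions and in 8.26% of all regions. These shares describe letters, not binding or use. The 10 members with a pyrimidine motif had a median log2 difference of -0.33 and ranged from -3.21 (Rpl38) to 2.12 (Rpl39l). The 25 members without one had a median of -0.53 and ranged from -2.47 (Rps21) to 0.69 (Rpl10a). In the first group 2 members were called lower and 1 higher as deposited, and in the second 4 were called lower. Of all genes, 18.5% were called lower and 5.23% higher as deposited.

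The resistant array was dimmer as a whole. Median intensity was 24.9 units on the resistant array and 58.4 and 72.5 on the sensitive arrays. Over the 6019 probes that reached 500 units on each sensitive array, the median log2 ratio of the resistant array to the sensitive mean was -0.88. Differences are therefore given on 2 scales: as deposited, and after each array was scaled to remove this shift. All differences are of log2(intensity + 50), resistant minus sensitive, which understates the change of dim genes. To be called, a gene needed a limma p under 0.05 after Benjamini-Hochberg adjustment over all genes, and had to lie 1 or more log2 units below, or above, each of the sensitive arrays. The words "rose" and "fell" are kept for calls made on both scales. Of 10 measured myeloid and leukocyte markers, 4 (Mpo, Prtn3, Ctsg and Ptprc) read at least 500 units on every array. Summed, the 10 read 149354 units in resistant cells against 121959 and 133080 in sensitive cells, most of it Mpo, Prtn3 and Ctsg. Others of the list went opposite ways: Elane read 11153 units in resistant cells against 272 and 350 in sensitive cells, and Csf1r read 28.0 against 2413 and 3009. Itgam read 443 units in resistant cells against 1318 and 2389 in sensitive cells, and Spi1 read 109 against 634 and 591. The 3 erythroid markers measured summed to 52.9 units in resistant cells against 93.2 and 91.0 in sensitive cells, with Epor at 0 on the resistant array. The 4 megakaryocyte markers summed to 45.1 against 130 and 102, and the 3 T cell markers to 90.2 against 299 and 257. The 3 B cell markers summed to 124 in resistant cells against 1264 and 1311 in sensitive cells, most of it Cd79b (21.8 against 970 and 1049 units). The 5 stromal and endothelial markers summed to 1619 against 1077 and 1145 units, most of it Pecam1, and Col1a1 was at 0 on the resistant array. The part of any of these markers in the results below was not tested. In RNA from a culture, fewer cells of a kind and less RNA per cell cannot be told apart.

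**Figure D1:**
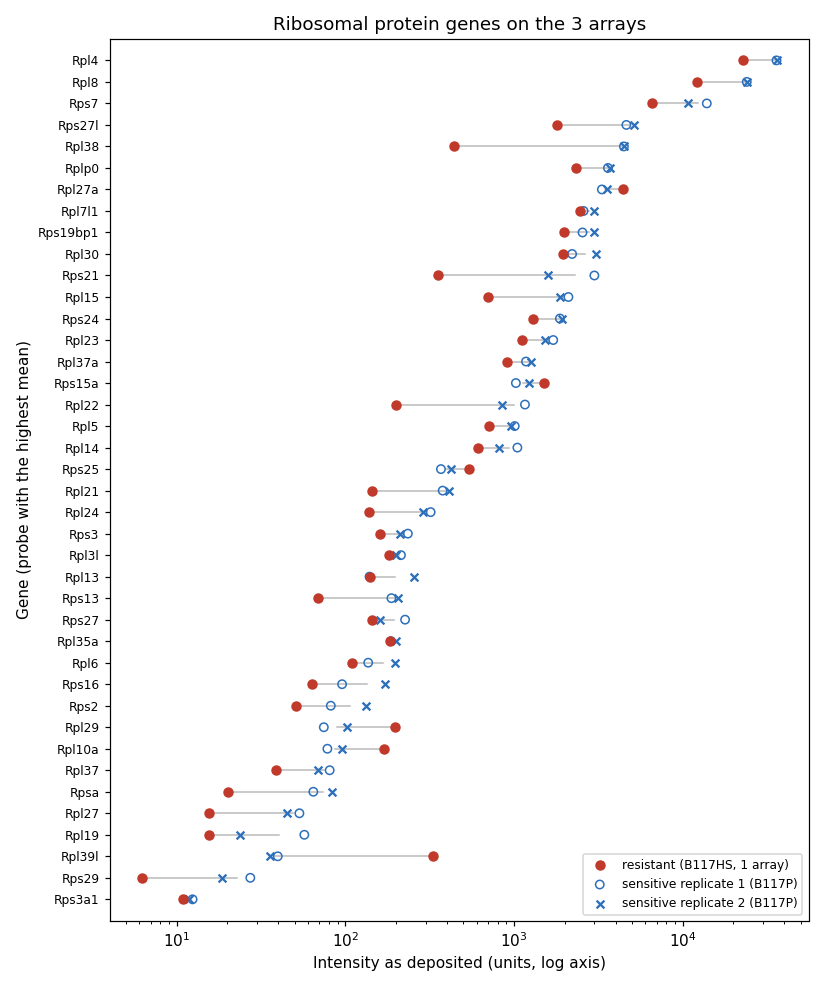
Intensity of each of the 40 ribosomal protein genes on the 3 arrays, on a log axis in deposited units, with genes ordered by their sensitive mean. Grey lines join the resistant value to the sensitive mean; Rpl38, Rps21 and Rpl22 have the widest gaps to the left and Rpl39l the widest to the right.

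Most ribosomal protein genes read lower on the dimmer resistant array without reaching a call. Rpl38 and Rpl22 fell, Rpl39l rose, and 27 of 40 were called on neither scale. As deposited, 7 of 40 (17.5%) were called lower, where 18.5% of all genes were, and 1 (2.5%) was called higher, where 5.23% of all genes were. After scaling, 2 of 40 (5.0%) were called lower, against 7.83% of all genes, and 6 (15.0%) were called higher, against 11.0%. On both scales, 2 members were lower and 1 higher, where 7.68% and 5.22% of all genes were. The shares of members called as deposited and after scaling were thus near those of all genes. That background mixes genes of all intensities: 1.88% of genes below 100 units were called lower as deposited, and 27.9% of those from 100 to 500 units. Of the members, 31 averaged at least 100 units in sensitive cells.

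As deposited, the median log2 difference of the members was -0.47, beside -0.33 over all genes. After scaling it was 0.22, beside -0.01 over all genes. The resistant value lay below both sensitive values in 33 members, above both in 6 and between them in 1 (Rpl13). The resistant array was dimmer as a whole, and the same count was not made over all genes. The 27 members called on neither scale differed by -0.98 to -0.03 as deposited and by -0.50 to 0.69 after scaling. Between the sensitive arrays the members differed by a median of 0.16 in absolute log2, beside 0.15 over all genes. None of the 40 reached 1 there, and 0.857% of all genes did. The widest gap between sensitive arrays among members was 0.89, in Rps21.

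**Figure D2:**
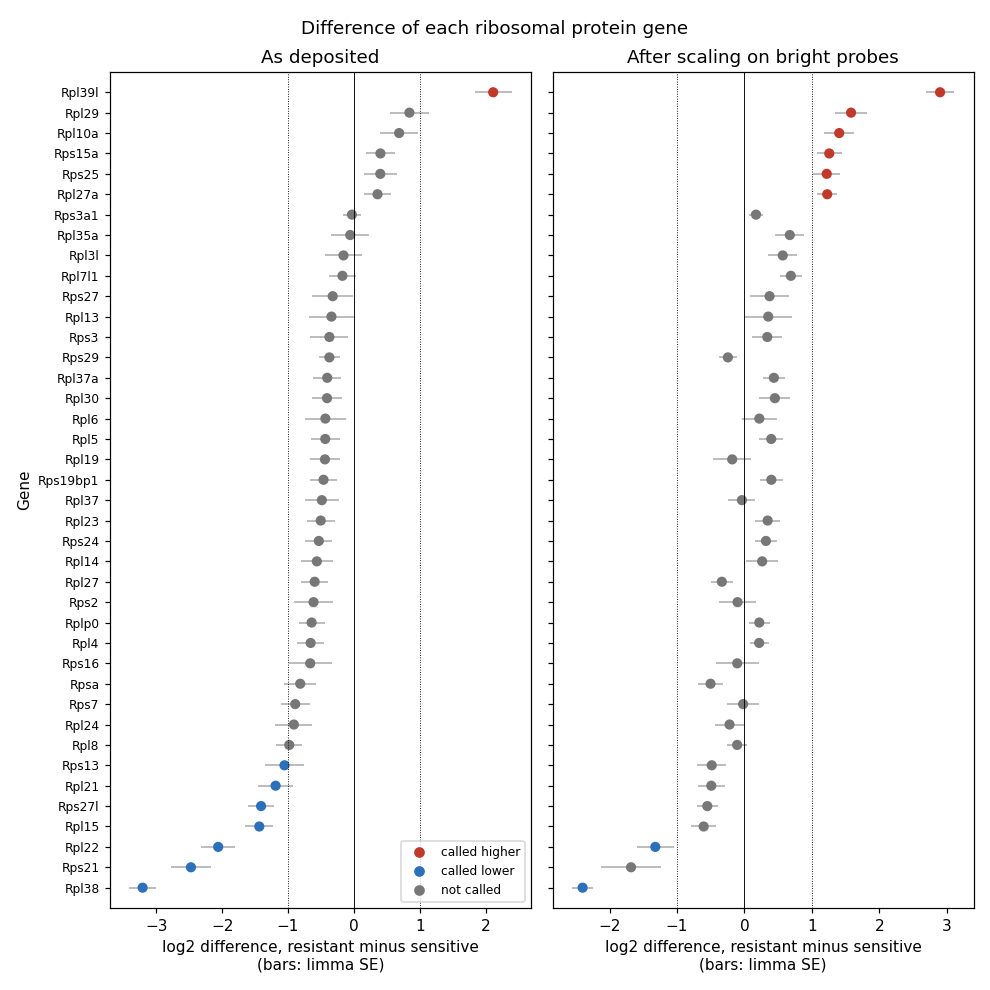
Difference of log2(intensity + 50), resistant minus sensitive, of each of the 40 genes as deposited (left) and after scaling on bright probes (right), with limma standard errors as bars and dotted lines at -1 and 1. Colours mark calls: 7 lower and 1 higher on the left, 2 lower and 6 higher on the right.

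Rpl38, a small protein of the large subunit that in mice is needed for translation of certain Hox messengers, had the lowest difference of all members. Its probe read 442 units in resistant cells, against 4484 and 4503 in sensitive cells (mean 4494 ± 13.6, SD, n = 2). The resistant value was 9.83% of the sensitive mean, far outside the gap between the sensitive arrays. The log2 difference was -3.21 (SE 0.20, limma adjusted p = 2.16e-07) as deposited and -2.40 (adjusted p = 0.0037) after scaling. Its annotated start, shown above, opens with CTTTCC.

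Rpl22 encodes a large subunit protein that binds RNA hairpins and whose loss has been described in T-cell leukaemia. It read 201 units in resistant cells, against 1162 and 852 in sensitive cells (mean 1007 ± 219, SD, n = 2). The log2 difference was -2.06 (SE 0.26, limma adjusted p = 4.93e-05) as deposited and -1.32 (adjusted p = 0.032) after scaling. The call was lost after quantile normalization (-1.45, adjusted p = 0.073) and with a floor of 50 units in place of the offset (-2.31, adjusted p = 0.11). Over all alternatives with a test, its adjusted p ranged between 1.34e-05 and 0.11.

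Rps21, a small subunit protein, had a larger difference than Rpl22 on both scales, but its sensitive values were spread. It read 353 units in resistant cells, against 2997 and 1596 in sensitive cells (mean 2296 ± 990, SD, n = 2). Resistant cells lay below both, yet the gap between the sensitive arrays was the widest of any member. The log2 difference was -2.47 (SE 0.31, limma adjusted p = 4.74e-05) as deposited, a call, and -1.68 (adjusted p = 0.052) after scaling, short of one.

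Rpl39l, a paralogue of the exit tunnel protein gene Rpl39 that is known for expression in testis, was the member that rose. It read 330 units in resistant cells, against 39.8 and 35.6 in sensitive cells (mean 37.7 ± 2.93, SD, n = 2). The resistant value was 8.75 times the sensitive mean, and the sensitive values lay below the median of all genes (110 units). The log2 difference was 2.12 (SE 0.28, limma adjusted p = 8.24e-05) as deposited and 2.90 (adjusted p = 0.0043) after scaling. With a floor of 50 units in place of the offset the difference was 2.72 with an adjusted p of 0.061, and the call was lost. Rpl39 itself was not analysed here.

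The other 4 members called lower as deposited stayed below the sensitive mean after scaling, by less than 1. Rpl15, a core protein of the large subunit, read 702 units in resistant cells, against 2102 and 1872 in sensitive cells. Its log2 difference was -1.44 (limma adjusted p = 0.000182) as deposited and -0.60 after scaling. Rps27l, a paralogue of Rps27 and a known target of p53, read 1809 units in resistant cells, against 4637 and 5151 in sensitive cells. The Rps27l difference was -1.41 as deposited and -0.55 after scaling. In both genes the resistant value lay below both sensitive values, which a call requires.

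Rpl21, of the large subunit, read 145 units in resistant cells, against 378 and 410 in sensitive cells, a log2 difference of -1.19 as deposited and -0.49 after scaling. Rps13, of the small subunit, read 68.4 units in resistant cells, against 188 and 204 in sensitive cells, with differences of -1.05 and -0.49. These were the dimmest of the members called lower.

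Another 5 members read higher on the resistant array than on either sensitive array, and were called higher after scaling only. Rpl27a, of the large subunit, read 4435 units in resistant cells, against 3320 and 3579 in sensitive cells, a log2 difference of 0.36 (limma adjusted p = 0.16) as deposited and 1.23 after scaling. Rps15a, of the small subunit, read 1504 units in resistant cells, against 1026 and 1233 in sensitive cells, with differences of 0.40 and 1.26. Rps25, a small subunit protein used by some viral and cellular internal ribosome entry sites, read 540 units in resistant cells, against 369 and 426 in sensitive cells, with differences of 0.40 and 1.22.

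Rpl10a and Rpl29 were dimmer. Rpl10a, a protein of the flexible L1 stalk, read 170 units in resistant cells, against 78.3 and 95.0 in sensitive cells, a log2 difference of 0.69 as deposited and 1.41 after scaling. Rpl29, of the large subunit, read 198 units in resistant cells, against 74.5 and 103 in sensitive cells. The Rpl29 difference was 0.84 (limma adjusted p = 0.036) as deposited, below the size asked of a call, and 1.58 after scaling.

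**Figure D3:**
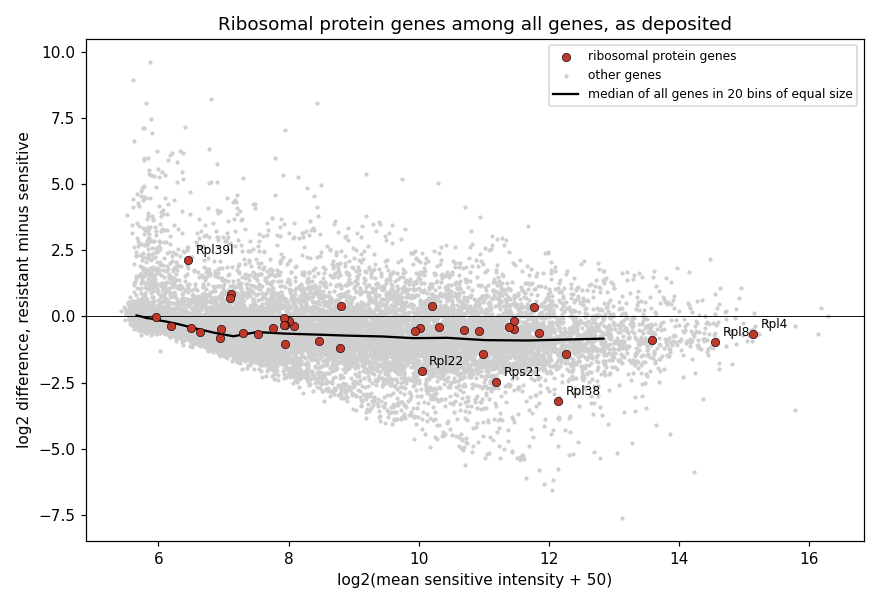
Difference as deposited (vertical, log2) against the mean sensitive intensity (horizontal, log2 of units + 50) for 17742 genes, with the 40 ribosomal protein genes in red and the median of all genes in 20 bins of equal size as a line. Of the members, Rpl38, Rps21 and Rpl22 lie well below it and Rpl39l farthest above it. Other members, among them Rpl29, Rpl10a, Rps25, Rps15a and Rpl27a, also lie above it.

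The 3 brightest members were called on neither scale. The next by sensitive mean, Rps27l and Rpl38, were called lower as deposited. Rpl4, whose long extension lines the exit tunnel, read 22871 units in resistant cells, against 36016 and 36140 in sensitive cells. Its log2 difference was -0.66 as deposited and 0.22 after scaling. Rpl8, a protein near the catalytic centre of the large subunit, read 12152 units in resistant cells, against 23992 and 24096 in sensitive cells, with differences of -0.98 and -0.11. Rps7, of the small subunit, read 6554 units in resistant cells, against 13905 and 10687 in sensitive cells, with differences of -0.89 and -0.02. The resistant values of all 3 lay below both sensitive values. Their differences as deposited had a median of -0.89, beside -0.70 for the 278 genes of at least 10000 units. No member probe came near the upper limit at which the brightest probes of each array stopped.

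The size of the shift depended on brightness over the whole array, so members were also set beside genes of the same range. Genes below 100 units on average in sensitive cells had a median difference of -0.16, and the 9 members there one of -0.37. From 100 to 500 units the medians were -0.67 for all genes and -0.40 for 12 members. From 500 to 2000 units they were -0.80 and -0.52 (8 members), and from 2000 to 10000 units -0.91 and -0.55 (8 members). In these last ranges 37.4% and 41.9% of all genes were called lower, and 2 and 3 members were. From 100 to 500 units 27.9% of all genes and 2 of the 12 members were called lower. From 10000 units the medians went the other way, -0.70 for all genes and -0.89 for 3 members. There 29.5% of all genes were called lower and no member was.

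Several abundant ribosomal protein genes had dim probes. Of the 40 members, 18 averaged under 250 units and 9 under 100 units in sensitive cells, although the median of the members (396 units) was above that of all genes (110 units). Rps3a1 read 10.9 units in resistant cells, against 12.4 and 11.9 in sensitive cells. Rps29 read 6.22 units in resistant cells, against 27.3 and 18.5 in sensitive cells. Rpl19 and Rpl27 both read 15.6 units in resistant cells. In sensitive cells Rpl19 read 57.2 and 23.7 units and Rpl27 read 53.4 and 44.8 units. A gene under 50 units on a sensitive array could not reach a log2 difference of -1 with an offset of 50 unless its resistant value was below 0, and 5 members were in that position. Probe sequences were not used here, so cross-hybridisation with the many processed copies of these genes in the mouse genome was not tested.

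Rplp0, the base of the stalk that recruits the translation GTPases, was the one gene of the P stalk measured. It read 2321 units in resistant cells, against 3607 and 3692 in sensitive cells, a log2 difference of -0.64 as deposited and 0.22 after scaling. Rpl5 joins the 5S ribosomal RNA and, as background, can bind Mdm2 when ribosome assembly fails. Rpl5 read 716 units in resistant cells, against 1010 and 960 in sensitive cells, with differences of -0.43 and 0.40. Neither gene was called on either scale. Rpsa, also known as a laminin receptor, read 20.2 units in resistant cells, against 64.6 and 83.1 in sensitive cells, with differences of -0.81 and -0.50.

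Of 19 listed genes linked to Diamond-Blackfan anaemia, 9 were measured. As deposited 1 (11.1%) was called lower (Rpl15), where 18.5% of all genes were. After scaling 1 (11.1%) was called higher (Rps15a), where 11.0% of all genes were, and no gene of the list was called on both scales. The list's median difference was -0.43 as deposited and 0.32 after scaling. Rps24 read 1294 units in resistant cells, against 1871 and 1917 in sensitive cells, with differences of -0.53 and 0.32. Rpl35a read 184 units in resistant cells, against 186 and 199 in sensitive cells, with differences of -0.06 and 0.67. Rps27 read 143 units in resistant cells, against 226 and 161 in sensitive cells, with differences of -0.32 and 0.37. The values of Rps7, Rpl5, Rps29 and Rpl27 are given above.

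The 5 paralogues and namesakes did not move together. Rpl39l rose, and Rps27l was called lower as deposited only, while its partner Rps27 was not called. Rpl3l, a paralogue of Rpl3 known from heart and skeletal muscle, read 180 units in resistant cells, against 214 and 200 in sensitive cells, a log2 difference of -0.16 as deposited. Rpl7l1, a paralogue of Rpl7, read 2461 units in resistant cells, against 2584 and 2995 in sensitive cells, a difference of -0.17. Rps19bp1 encodes a binding partner of Rps19 and is not itself part of the ribosome. Rps19bp1 read 1991 units in resistant cells, against 2548 and 2988 in sensitive cells, a difference of -0.46 as deposited. After scaling the differences of Rpl3l, Rpl7l1 and Rps19bp1 were 0.57, 0.69 and 0.40, and none was a call.

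Grouped by name alone, the 2 subunits had similar medians as deposited. The small subunit group thus held Rps19bp1, which is not part of the ribosome, and the paralogue Rps27l, which was called lower. The large subunit group held the paralogues Rpl39l, Rpl3l and Rpl7l1. The 25 large subunit genes had a median difference of -0.44, with 4 called lower and 1 higher, where 18.5% and 5.23% of all genes were. The 15 small subunit genes had a median of -0.53, with 3 called lower and 0 higher in limma (0 also higher at an unadjusted p under 0.05). After scaling the medians were 0.26 and -0.02. Then 2 large subunit genes were called lower and 4 higher, and 0 small subunit genes lower (2 at an unadjusted p under 0.05 in limma) and 2 higher, where 7.83% and 11.0% of all genes were. Other large subunit members that were not called were Rpl14 (-0.56), Rpl23 (-0.50), Rpl24 (-0.91), Rpl30 (-0.41), Rpl37a (-0.40), Rpl37 (-0.49), Rpl6 (-0.43) and Rpl13 (-0.34), as log2 differences as deposited. Other small subunit members were Rps2 (-0.61), Rps16 (-0.66) and Rps3 (-0.37). None of these reached 1 after scaling either.

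For 8 members more than 1 probe was present, and the brightest stood for the gene. The other probe of Rps7 read 90.2 units in resistant cells, against 294 and 261 in sensitive cells, a log2 difference of -1.22 where the standing probe gave -0.89. The other probe of Rpl21 gave -0.97, beside -1.19, and that of Rpl30 gave -0.66, beside -0.41. Both probes of Rpl27a (0.36 and 0.23) and of Rps15a (0.40 and 0.48) read higher in resistant cells than on either sensitive array. The probes of Rpl37 differed in sign (-0.49 and 0.20), both below 100 units. The second probe of Rpl7l1 gave -0.74, beside -0.17. The 2 further probes of Rpl3l read 51.4 units or less on every array. Rpl38, Rps21, Rpl22 and Rpl39l had 1 probe each, so their values have no check from a second probe.

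The members lay on 14 chromosomes in GRCm38.p6. Rpl38 shared chromosome 11 with Rpl27 (-0.60), Rpl23 (-0.50) and Rpl19 (-0.44), none of which was called. Rpl39l shared chromosome 16 with Rpl24 (-0.91) and Rpl35a (-0.06). Rps21 and Rpl22 were the sole members on chromosomes 2 and 4.

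Outside the ribosomal proteins, 76 of 84 listed genes of translation were measured. As deposited 17 (22.4%) were called lower and 3 (3.95%) higher, against 18.5% and 5.23% of all genes. After scaling 11 were called higher and 0 lower in limma (11 were lower at an unadjusted p under 0.05). Of all genes, 11.0% were then higher and 7.83% lower. On both scales 3 were called higher and none lower, where 5.22% and 7.68% of all genes were. The median difference of the 76 was -0.57 as deposited and 0.17 after scaling, close to the -0.47 and 0.22 of the ribosomal proteins. The genes that rose were Eif2s1, Ddit4 and Max.

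Initiation factors bring the ribosome to the start codon. Of 32 measured, 7 (21.9%) were called lower as deposited and 1 higher, where 18.5% and 5.23% of all genes were, with a median of -0.73. After scaling 0 were called lower in limma (5 at an unadjusted p under 0.05) and 3 (9.38%) higher, where 11.0% of all genes were higher, with a median of 0.07. Eif2s1, the alpha subunit of eIF2 on which stress kinases act, rose. It read 876 units in resistant cells, against 99.4 and 141 in sensitive cells, 2.45 apart on the log2 scale as deposited (SE 0.29, limma adjusted p = 3.26e-05) and 3.29 apart after scaling. The eIF3 subunit genes Eif3g (-1.67) and Eif3k (-1.60) and the eIF2B subunit gene Eif2b3 (-1.60) were called lower as deposited only. The helicase genes Eif4a1 (-0.92) and Eif4a2 (1.11) were not called as deposited, and Eif4a2 was called higher after scaling (1.99).

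Elongation factors move the ribosome along the message. Of 11 measured genes of elongation, termination and nascent chains, 1 (9.09%) was called lower as deposited, Naca (-1.41), a chaperone gene of nascent chains. By comparison, 18.5% of all genes were. After scaling 2 (18.2%) were called higher, Gspt1 (1.28) and Eef1d (1.15), where 11.0% of all genes were. None of the 11 was called on both scales. Eef2, the translocase gene, read 28593 units in resistant cells, against 34192 and 39255 in sensitive cells, a log2 difference of -0.36. Fau encodes a ubiquitin-like fusion to a small subunit protein outside the naming rule. Fau read 2374 units in resistant cells, against 1452 and 2324 in sensitive cells, a difference of 0.36 as deposited. After scaling the differences of Eef2 and Fau were 0.52 and 1.22, and neither was a call.

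Of 18 genes that control TOP messengers and mTOR signalling, 3 (16.7%) were called lower as deposited and 1 higher, beside 18.5% and 5.23% of all genes. After scaling 0 were called lower in limma (1 at an unadjusted p under 0.05) and 3 (16.7%) higher, beside 11.0% of all genes higher. Ddit4, an inhibitor of mTOR complex signalling induced by stress, read 988 units in resistant cells, against 102 and 194 in sensitive cells, a log2 difference of 2.43 (limma adjusted p = 7.12e-05) as deposited and 3.28 after scaling. Mtor itself (-1.47), Tsc2 (-1.16) and Rps6ka1 (-1.13) were called lower as deposited only. Larp1 (-0.40) was not called, and Larp4 (0.89) was called higher after scaling only.

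Of 6 genes of factors linked to ribosomal protein promoters, Max rose and Nrf1 (-1.29) was called lower as deposited only. That made 16.7% higher and 16.7% lower as deposited, where 5.23% and 18.5% of all genes were. On the scaled values the higher calls were 2 (33.3%), Max and Sp1, where 11.0% of all genes were higher. Sp1 read 1716 units in resistant cells, against 926 and 973 in sensitive cells. Its log2 difference was 0.82 before scaling, short of a call, and 1.68 on the scaled values. Max, the dimerisation partner of Myc, read 212 units in resistant cells, against 6.21 and 6.60 in sensitive cells, where its probe was near 0 and a failed spot was not tested. Gabpa (0.14) and Gabpb1 (-0.97) were not called. Of 8 genes for chaperones of ribosomal proteins and late assembly, 5 (62.5%) were called lower as deposited, among them Tsr1 (-1.69), Grwd1 (-1.53), which in humans binds Rpl3, and Pdcd2 (-1.51) and Pdcd2l (-1.13), and none on both scales. Beside them, 18.5% of all genes were called lower, and 37.4% to 41.9% of those between 500 and 10000 units, where all of the chaperone genes but Tsr2 lay. After scaling none of the 8 was called lower in limma (3 at an unadjusted p under 0.05). The chaperone list's median was -1.12 as deposited and -0.27 after scaling. Heatr3, which in yeast and humans helps import Rpl5, differed by 0.88 and was called higher after scaling (1.75).

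**Figure D4:**
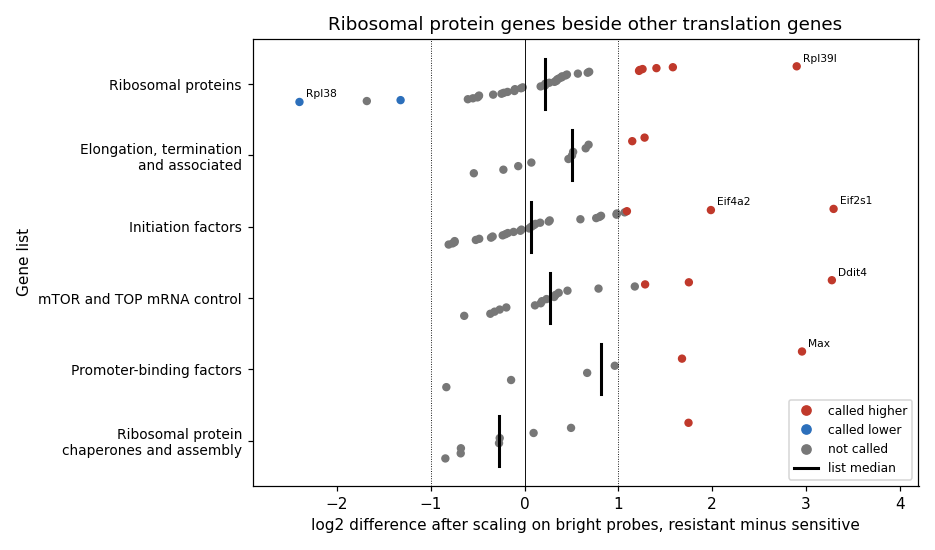
Difference of log2(intensity + 50) after scaling on bright probes for the ribosomal protein genes (top row) and for 5 other lists of translation genes, 1 point per gene, with list medians as black bars and dotted lines at -1 and 1. Rpl38 lies lowest of all points at -2.40; Eif2s1, Ddit4, Max and Rpl39l lie highest, between 2.90 and 3.29.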

How the data were processed

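Per the labels' protocols, amplified antisense RNA carried Cy5 onto arrays read in 1 colour. The authors deposited 1 table of intensity per probe (26423 probes, 3 arrays). Its values are linear, reach below 0 and are whole multiples of 1 step per array (99.99% within 0.02 steps), so a background had been subtracted and a factor applied; no source used here names the scanner or its software. Probes were named through the platform's symbols (20377 with 1, 0 with several, 6046 with none), updated to GRCm38.p6 names; of the members, 39 matched directly and 1 (Rps3a1) by an older name. Each gene was read from its brightest probe, by mean over the arrays.

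log2(intensity + 50) was fitted with limma 3.58.1 in R 4.3.3 (lmFit, eBayes with a trend, prior df 11.0) over 17742 genes on 3 arrays, with 1 residual degree of freedom from the sensitive arrays; the resistant array, being alone, was taken to vary as they do. The fit was tested on simulated data. These gave every array the fitted spread, so they could not test whether the resistant array varies as the sensitive arrays do. The offset of 50 kept values below 0 in the fit. Tables and plots used Python 3.11.15 with pandas 2.3.3, numpy 2.4.6 and matplotlib 3.10.9.

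The members, lists and naming rule were chosen with earlier results of these data known. Named with values on each array were members called on both scales, the brightest, the stalk, 5S particle and anaemia genes, paralogues, and members whose probes differ; from other lists, up to 4 called genes and 2 others. Members called on 1 scale, and dim members, were added after their values were seen. The number of arrays limits the precision. Alternatives were other scalings, offsets, a floor, the mean of probes, a filter on dim genes, other variance trends and size limits, leaving out kinds of member, and leaving out each sensitive array.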

Additional observations from a re-analysis of the deposited data

How the results depend on the processing

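With scaling on bright probes, quantile normalization, centring on array medians and cyclic loess, 2, 1, 3 and 3 ribosomal protein genes were called lower in place of 7, and 6, 3, 4 and 6 higher in place of 1; their median difference was 0.22, 0.040, 0.15 and 0.17 in place of -0.47. Translation genes outside the ribosome called lower were then 0, 2, 0 and 0 in place of 17, with 11, 17 and 15 at an unadjusted p under 0.05 in limma where the count was 0, and 11, 4, 8 and 10 were higher in place of 3. Scaling on the probes of at least 500 units by their mean over all arrays, an alternative chosen after seeing the data (shift -0.77), gave 2 ribosomal protein genes lower, 6 higher and a median of 0.14, with 0 translation genes lower (12 at an unadjusted p under 0.05) and 9 higher. Each of these alternatives, by construction, removes a shift between the arrays. Over all genes, 3284 were lower and 928 higher as deposited, against 1390 and 1946 after scaling on bright probes.

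A floor of 50 units in place of the offset left 1 ribosomal protein gene lower (Rpl38) and 0 higher (1 at an unadjusted p under 0.05), and 0 translation genes lower (30 at an unadjusted p under 0.05) and 1 higher; the cause was not tested. Offsets of 16 and 100 moved the median to -0.57 and -0.41. A size limit of 0.6 gave 13 lower and 2 higher ribosomal protein genes and 32 and 6 translation genes, and a limit of 2 gave 2 lower ribosomal protein genes and 0 lower translation genes (38 at an unadjusted p under 0.05). Without the paralogues and namesakes 0 members were called higher in limma (2 at an unadjusted p under 0.05), since Rpl39l was the one called. Leaving out members near the scanner limit removed none. On both scales together, a count added after seeing the data, 1 gene was lower (Rpl38) with an offset of 100, with the floor and with a limit of 2, and 3 (Rpl38, Rpl22 and Rps21) with an offset of 16, with the mean of probes and without the dimmest 25% of genes; 0 were higher with the floor and 2 (Rpl39l and Rpl29) with a limit of 0.6. Rpl38 was called lower in 16 of 16 alternatives and Rpl39l higher in 15. The limit of 0.6 and leaving out either sensitive array could not lose a call made as deposited, so they were no check on these calls.

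Leaving out a sensitive array leaves no residual degrees of freedom, so those counts use size alone: 7 to 8 ribosomal protein genes lower, 1 higher, a median of -0.54 to -0.49, 20 to 21 translation genes lower and 3 to 6 higher, and 3 lower and 1 higher on both scales. The 6 higher translation genes were counted without sensitive replicate 2. No paired analysis was possible because the resistant array carries no replicate number and stands alone.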
